A study of Mus musculus with 12 samples.

Results

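The genes described here are 26 genes of the GABA system that the transcript table of striatal RNA lists by symbol, out of 52169 gene symbols in all. They were chosen by name: the enzymes that make GABA (Gad1, Gad2), its transporters (Slc32a1, Slc6a11, Slc6a13), the enzyme that breaks it down (Abat), 13 subunits of the GABA-A receptor, 3 rho subunits, both subunits of the GABA-B receptor, and a scaffold and an adhesion protein of the inhibitory synapse (Gphn, Nlgn2). Each gene is represented by the transcript with the highest mean level over the 12 libraries.

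GABA is the main inhibitory transmitter of the brain, and the medium spiny neurons that make up most of the striatum release it. Glutamate decarboxylase forms GABA from glutamate, a vesicular transporter loads it into synaptic vesicles, plasma membrane transporters take it back into neurons and glia, and GABA transaminase degrades it. Released GABA opens the GABA-A receptor, a chloride channel built from subunits of several families, and activates the GABA-B receptor, a G protein-coupled receptor that needs both of its subunits.

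All mice were C57BL/6J and carried a unilateral lesion made by an injection of 6-OHDA, a toxin that kills dopamine neurons, into the right medial forebrain bundle, after desipramine to spare noradrenergic neurons. After 2 weeks they received L-DOPA at 10 mg/kg together with benserazide at 7.5 mg/kg, either as a single dose (acute) or on 9 days (chronic), and the striatum was taken 1 hour after the last dose. The 4 groups, with 3 libraries each, are the unlesioned and the lesioned striatum after acute and after chronic L-DOPA. By the sample labels each library came from 3 punches of 2 mm diameter, while the study's section on gene expression by qPCR gives a single punch per hemisphere. The design text counts 12 mice for the 12 libraries, while the study also describes the unlesioned side as the control within each mouse. All 12 libraries analysed here followed L-DOPA, so the lesion and the response of the lesioned side to L-DOPA cannot be told apart, and ages are not given.

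Totals ran from 87695043 to 173116525 counts per library, with each read counted on every transcript it overlaps. Levels are given as CPM, which is proportional to a transcript's share of all counts of its library after TMM scaling, and a gene is called changed at a Benjamini-Hochberg adjusted p under 0.05 in edgeR's quasi-likelihood test over all transcripts. Markers of striatal medium spiny neurons were all detected (10 of 10, summed level 1830 to 2632 CPM). The unlesioned library 2 after chronic L-DOPA stood apart, with a summed choroid plexus marker level of 640 CPM against 18.3 to 56.8 CPM in the other 11 libraries. Library 2 of both chronic groups also had the highest thalamus marker sums (10.6 and 9.04 CPM against 3.55 to 6.49 CPM elsewhere). Where leaving out 1 of these libraries changed a call, the value without it is given.

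The levels per transcript length spanned a wide range. In the acute unlesioned group, Gabbr1 (35.1 ± 1.6 CPM per kb, SD, n = 3) and Gad1 (32.5 ± 1.7 CPM per kb) were the highest, and their libraries overlapped. Slc32a1 (25.8 ± 3.2 CPM per kb) and Abat (24.2 ± 0.96 CPM per kb) followed and did not differ beyond their spread, and Gad2 came next at 14.3 ± 0.25 CPM per kb. Among the GABA-A subunits, Gabra4 (11.8 ± 0.65 CPM per kb) and Gabrd (11.7 ± 0.34 CPM per kb) stood at the same level, above Gabra2 (6.38 ± 0.23 CPM per kb) and Gabrb2 (5.55 ± 0.1 CPM per kb). The subunits Gabra3, Gabra5, Gabrb1, Gabrg1 and Gabrg3 lay between 0.904 and 2.13 CPM per kb. Gabbr2 reached 2.9 ± 0.15 CPM per kb, so that the 2 subunits of the GABA-B receptor were not listed at equal levels: the ratio of Gabbr1 to Gabbr2 per length was 12.1 ± 0.73 in this group and 10.4 to 14 as a mean in the other groups. In the chronic lesioned striatum Gad1 (68.1 ± 7.9 CPM per kb) and Gad2 (39.9 ± 2.4 CPM per kb) ranked above all other members.

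**Figure D1:**
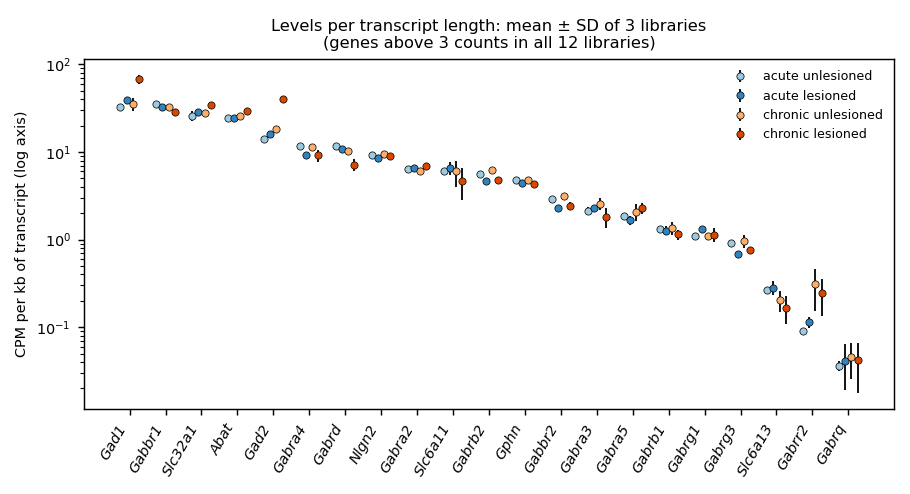
Levels of the 21 members with more than 3 counts in all 12 libraries, as CPM per kb of transcript on a log axis, with the mean and SD of 3 libraries for each group. The genes are ordered by their mean over the 12 libraries, from Gad1 (43.8 CPM per kb) to Gabrq (0.0414 CPM per kb), and the chronic lesioned points of Gad1 and Gad2 lie above those of the other groups.

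The remaining 5 members were close to or under the limit of detection, set at 3 counts per library. Gabra6, a subunit of cerebellar granule cells, had at most 1 count in any library, Gabrp at most 2 counts and Gabrr3 at most 1 count. Gabre passed 3 counts in 10 libraries with at most 20 counts, and Gabrr1 in 7 libraries with at most 15 counts. These limits cover counting error only. The 3 genes at the floor and Gabrr1 entered none of the main tests, and Gabre was tested there only where the chronic lesioned libraries took part.

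The sequences upstream of Gad1, Gad2 and Slc32a1 are shown because these 3 genes, which all lie on chromosome 2 without being neighbours, are the members called higher in the lesioned than in the unlesioned side after chronic L-DOPA. RefSeq promoters (GRCm38.p6, 250 bases before to 50 bases after the start) matched 24 of the 26 members, with 30 promoters among them. They were searched on both strands for the CRE (TGACGTCA), the AP-1 site (TGANTCA) and the Egr site (GCGTGGGCG or GCGGGGGCG), and matches are in capitals. The Gad1 window lies at chr2:70561879-70562178, the Gad2 window at chr2:22622077-22622376 and the Slc32a1 window at chr2:158610508-158610807, all on the plus strand.
Gad1: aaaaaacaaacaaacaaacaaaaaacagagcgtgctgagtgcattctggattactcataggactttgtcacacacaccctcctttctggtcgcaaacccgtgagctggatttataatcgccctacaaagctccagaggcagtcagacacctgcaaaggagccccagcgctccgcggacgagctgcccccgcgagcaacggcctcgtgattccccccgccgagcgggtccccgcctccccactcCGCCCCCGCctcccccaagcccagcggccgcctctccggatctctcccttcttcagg
Gad2: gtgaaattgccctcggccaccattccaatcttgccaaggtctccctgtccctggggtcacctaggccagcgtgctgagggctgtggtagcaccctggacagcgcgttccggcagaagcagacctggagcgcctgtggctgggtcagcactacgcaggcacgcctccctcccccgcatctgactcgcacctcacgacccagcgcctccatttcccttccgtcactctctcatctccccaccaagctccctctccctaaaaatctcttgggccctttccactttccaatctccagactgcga
Slc32a1: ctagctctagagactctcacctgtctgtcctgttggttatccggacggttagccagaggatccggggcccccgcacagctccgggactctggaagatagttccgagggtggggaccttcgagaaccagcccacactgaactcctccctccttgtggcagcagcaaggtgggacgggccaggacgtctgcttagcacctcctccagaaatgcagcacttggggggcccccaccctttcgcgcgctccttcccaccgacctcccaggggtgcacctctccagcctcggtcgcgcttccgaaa
The Gad1 window held 1 Egr match, on the minus strand, and it was the only match of any of the 3 motifs in the 30 member promoters. The Egr letters occur in 3.47% of the 32851 promoters of the table, the AP-1 letters in 7.81% and the CRE letters in 1.79%. The 3 windows were rich in G and C (60% for Gad1, 61.3% for Gad2 and 63.3% for Slc32a1, against a median of 52.7% over all promoters).

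The lesioned and the unlesioned striatum after acute L-DOPA were compared to ask how the side that lost its dopamine neurons differs 1 hour after a single dose. Of 21 members tested 6 were called (28.6%), against 12.9% of all transcripts tested and 15.3% of genes by their top transcript. The members were chosen with earlier results of these data known, so their shares called, here and below, are no test of the set. Split by direction, 6.85% of all transcripts were higher and 6.02% lower, and 8.16% and 7.16% of genes by their top transcript. Gad1 and Gabrg1 were higher in the lesioned striatum, and Gabra4, Gabrb2, Gabrg3 and Gabbr2 were lower. The differences were small, between 1.19-fold and 1.31-fold, and the median log2 fold change of the 21 members was 0.03 against 0.01 over all transcripts.

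Gad1 encodes the decarboxylase form that makes most of the GABA in neurons, and its top transcript of 17 exons lies at chr2:70400099-70440071 on the plus strand (mm9). It was measured at 104, 108 and 115 CPM in the unlesioned and at 122, 137 and 136 CPM in the lesioned libraries 1, 2 and 3. The groups did not overlap. The lesioned striatum was 1.21-fold higher (log2 fold change 0.27, SE 0.07, edgeR adjusted p = 0.0198), and 18 of its 19 transcripts, which share reads, were called higher. The call was lost without unlesioned library 1 or 2 or lesioned library 2 (adjusted p up to 0.0895), in a fit over all 12 libraries (adjusted p = 0.128), and with a score of cortical markers as a covariate (log2 fold change 0.15, adjusted p = 0.239).

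Gad2, the decarboxylase form concentrated at nerve endings (chr2:22477725-22549394, plus strand, 16 exons), read 80.3, 82.1 and 83.2 CPM in the unlesioned and 85, 94.4 and 96.3 CPM in the lesioned libraries. All lesioned libraries lay above all unlesioned ones, by less than for Gad1. The difference was not called (log2 fold change 0.17, SE 0.06, edgeR adjusted p = 0.0973), it passed with the replicate number as a block (adjusted p = 0.0435), and with the cortical covariate the value was 0.05 (adjusted p = 0.685). The vesicular transporter Slc32a1 gave a log2 fold change of 0.14 (adjusted p = 0.331), the glial transporter Slc6a11 0.13 (adjusted p = 0.425), Slc6a13 0.05 (adjusted p = 0.871) and Abat 0.03 (adjusted p = 0.804) in the same edgeR fit. Slc6a11 was called higher without lesioned library 2 (0.26, adjusted p = 0.0393) and gave 0.05 without lesioned library 3.

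The receptor subunits called after acute L-DOPA were mostly lower in the lesioned striatum. Gabra4, an alpha subunit found in extrasynaptic receptors of the striatum, read 50.4, 45.7 and 50.2 CPM in the unlesioned and 38.2, 40.3 and 34.8 CPM in the lesioned libraries. The groups were well apart, the lesioned side was 1.29-fold lower (log2 fold change -0.36, SE 0.07, edgeR adjusted p = 0.00483) and all 10 transcripts were called lower. Gabrg3, a gamma subunit, fell from 8.89, 9.08 and 8.51 CPM to 6.4, 6.97 and 6.88 CPM (log2 fold change -0.38, SE 0.06, edgeR adjusted p = 0.00247). Both calls held without each library in turn. Of the 6 Gabrg3 transcripts, however, 3 were called lower and the log2 fold changes ran from -0.60 to 0.52.

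Gabrb2, a beta subunit, was measured at 43.4, 42.5 and 41.9 CPM in the unlesioned and at 35.4, 36.8 and 34.6 CPM in the lesioned libraries. It was 1.19-fold lower on the lesioned side with no overlap (log2 fold change -0.25, SE 0.06, edgeR adjusted p = 0.0116), a call lost without unlesioned library 1 or 2 (adjusted p up to 0.0518). Gabbr2, the subunit that couples the GABA-B receptor to its G protein, read 17.4, 15.7 and 16.8 CPM against 13.6, 12.5 and 13.7 CPM on the lesioned side. It was 1.25-fold lower, again without overlap (log2 fold change -0.32, SE 0.06, edgeR adjusted p = 0.00719). With the cortical marker score as a covariate neither Gabrb2 (log2 fold change -0.24, adjusted p = 0.0507) nor Gabbr2 (-0.27, adjusted p = 0.0533) passed, with folds about as large as without it. Of the 7 cortical markers 2 were called lower on the acute lesioned side, with sums of 275 to 300 CPM against 285 to 344 CPM. Nrgn made up most of these sums (254, 271 and 331 CPM unlesioned against 275, 297 and 273 CPM lesioned), so they say little about the other cortical markers. Slc17a7, the vesicular glutamate transporter of cortical neurons, read 23.3, 10.6 and 10.1 CPM in the acute unlesioned and 12.2, 1.64 and 1.25 CPM in the acute lesioned libraries. In the chronic groups it read 18.2, 3.98 and 32.6 CPM against 17.8, 1.34 and 1.28 CPM, so the libraries of a group differed widely. Gabbr1, which binds GABA in this receptor, was not called (log2 fold change -0.12, adjusted p = 0.201).

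Gabrg1, a gamma subunit, was the only receptor subunit called higher. It read 5.64, 5.21 and 4.76 CPM in the unlesioned and 5.92, 6.42 and 6.69 CPM in the lesioned libraries, and the groups were separated by a narrow gap. The log2 fold change was 0.29 (SE 0.08, edgeR adjusted p = 0.0377), and 5 of 13 transcripts were called. The call was lost without unlesioned library 2 or 3 or lesioned library 2 or 3 (adjusted p up to 0.137), when all transcripts of the gene were summed (0.0696), in the fit over 12 libraries (log2 fold change 0.28, adjusted p = 0.136), and with the cortical covariate (0.25, adjusted p = 0.162), the folds of the last 2 being about as large as with 6 libraries. Beside it, astrocyte markers were higher on the lesioned side (2 of 6 called, sums of 220 to 276 CPM against 178 to 201 CPM), as were microglia markers (2 of 6, 62.9 to 74.7 CPM against 57 to 59.6 CPM), and 4 of 10 medium spiny neuron markers rose while 5 fell. Their part in these results was not tested. In such bulk tissue fewer cells of a type and less RNA per cell cannot be told apart.

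After chronic L-DOPA the lesioned and the unlesioned striatum differed most in GABA synthesis. Gad1 and Gad2 were each close to double the unlesioned level, Slc32a1 rose by a smaller amount, and Gabrd, Gabrb2 and Gabbr2 were lower. Of 22 members tested 6 were called (27.3%), against 12% of all transcripts and 13.7% of genes by their top transcript. In the higher and lower directions apart, 7.71% of all transcripts were higher and 4.33% lower, and 8.46% and 5.2% of genes by their top transcript. The median log2 fold change of the members was -0.17 against -0.02 over all transcripts. Lesioned and unlesioned libraries with the same number deviated together from their group means, weakly so for number 3. With the library number as a block 11 of 22 members were called, 3 higher and 8 lower. The block also raised the calls over all genes by their top transcript, to 2526 higher and 2259 lower of 19742.

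Gad1 read 109, 140 and 106 CPM in the unlesioned and 259, 210 and 216 CPM in the lesioned libraries 1, 2 and 3. Every lesioned library was far above every unlesioned one. The lesioned side was 1.93-fold higher (log2 fold change 0.95, SE 0.12, edgeR adjusted p = 0.00061), all 19 transcripts were called, and the log2 fold change stayed between 0.85 and 1.08 when each library was left out in turn. It was 1.08 without the unlesioned library 2 that carries choroid plexus markers, which was also the highest unlesioned library for Gad1.

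Gad2 read 106, 98.8 and 109 CPM in the unlesioned and 245, 224 and 219 CPM in the lesioned libraries. The libraries of each group lay close together and the groups were more than 100 CPM apart. The lesioned side was 2.19-fold higher (log2 fold change 1.13, SE 0.08, edgeR adjusted p = 9.41e-06), with all 7 transcripts called and a range of 1.08 to 1.17 over the fits that left out a library. Slc32a1, the vesicular transporter (chr2:158436494-158441483, plus strand, 2 exons), read 72.7, 80.5 and 78.7 CPM against 92.2, 93.1 and 104 CPM. It was 1.25-fold higher without overlap (log2 fold change 0.32, SE 0.08, edgeR adjusted p = 0.031), but the call was lost without unlesioned library 1 or 3 or lesioned library 1 or 3 (adjusted p up to 0.122), with the trend on GC content and length removed (log2 fold change 0.21, adjusted p = 0.0578) and with the cortical covariate (0.26, adjusted p = 0.16).

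**Figure D2:**
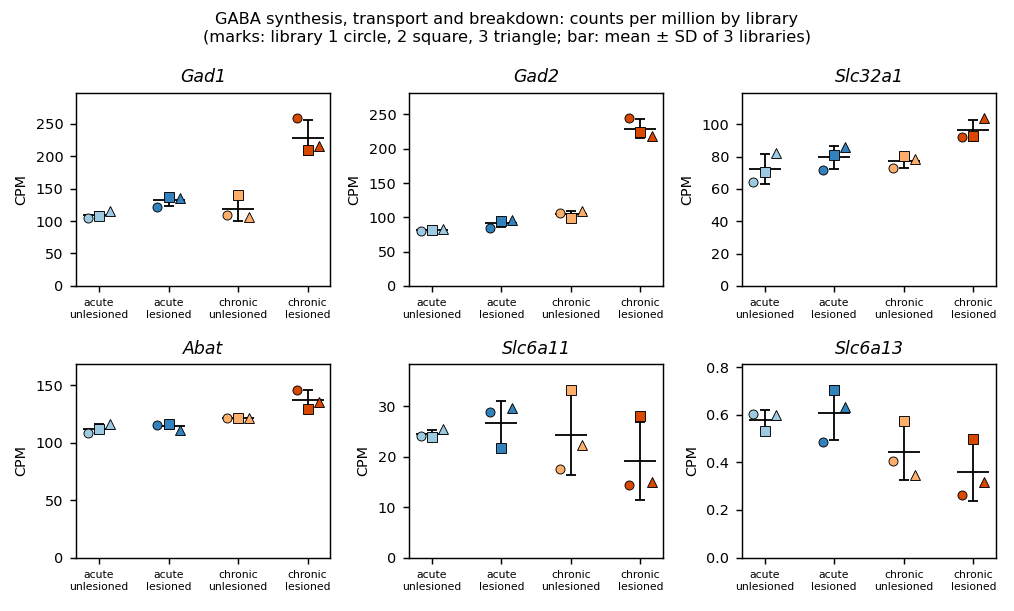
CPM of the genes for GABA synthesis, transport and breakdown in each of the 12 libraries, by group, with the mean and SD of 3 libraries as bars. The chronic lesioned libraries of Gad1 (210 to 259 CPM) and Gad2 (219 to 245 CPM) lie above all other libraries, whereas Slc6a11 follows the library number in the chronic groups, with library 2 highest on both sides.

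Some markers of striatal neurons moved with these rises and others did not. Of 10 medium spiny neuron markers 3 were called higher in the chronic lesioned striatum (sums of 2005 to 2632 CPM against 1830 to 2002 CPM), and of 10 interneuron markers 3 were higher and 2 lower (104 to 118 CPM against 89.8 to 105 CPM). The higher sums of the first list went with the neuropeptide genes Penk (383, 347 and 356 CPM unlesioned against 834, 650 and 869 CPM lesioned) and Pdyn (33.7, 24.8 and 39.3 CPM against 194, 181 and 178 CPM). Ppp1r1b, a phosphatase inhibitor of these neurons, read 613, 535 and 548 CPM against 440, 368 and 511 CPM, lower in each lesioned library. No marker of either list was at the floor. Their part in the rise of Gad1 and Gad2 was not tested.

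The ratio of the 2 decarboxylases overlapped between the sides after chronic L-DOPA. Per transcript length the ratio of Gad1 to Gad2 was 2.28 ± 0.082 (SD, n = 3) in the acute unlesioned and 2.45 ± 0.03 in the acute lesioned striatum, and 1.95 ± 0.41 and 1.7 ± 0.1 after chronic L-DOPA. The chronic unlesioned libraries 1, 2 and 3 stood at 1.77, 2.42 and 1.66 and the chronic lesioned ones at 1.81, 1.61 and 1.69, so that only library 2, with its choroid plexus markers, lay above the lesioned values by more than their spread. Against the vesicular transporter, Gad2 went from a ratio of 0.663 ± 0.057 in the chronic unlesioned to 1.16 ± 0.14 in the chronic lesioned striatum, with values of 1.3, 1.17 and 1.02 in the lesioned libraries that were all above the other 9 libraries.

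Gabrd, the delta subunit of extrasynaptic receptors (chr4:154759089-154772156, minus strand), showed the largest fall of the chronic comparison among the called members. It read 29.7, 25.8 and 27.6 CPM in the unlesioned and 18, 17.4 and 22.7 CPM in the lesioned libraries. The groups did not overlap, and lesioned library 3 lay nearest to the unlesioned values. Gabrd was 1.43-fold lower (log2 fold change -0.52, SE 0.11, edgeR adjusted p = 0.0118), and all 4 transcripts were called. The call was lost without unlesioned library 1 or lesioned library 1 (adjusted p up to 0.0594).

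Gabrb2 read 46.8, 48.1 and 48.5 CPM against 36.4, 40.1 and 33.1 CPM on the lesioned side, a 1.31-fold fall with no overlap (log2 fold change -0.39, SE 0.09, edgeR adjusted p = 0.0157). The call was lost without unlesioned library 3 or lesioned library 1 or 3 (adjusted p up to 0.0659) and with the cortical covariate, where the fold was the same (log2 fold change -0.39, adjusted p = 0.0629). Gabbr2 read 17.3, 17.5 and 19.8 CPM against 15, 14.9 and 12.2 CPM, a 1.3-fold fall with no overlap (log2 fold change -0.38, SE 0.10, edgeR adjusted p = 0.0341). It was lost without unlesioned library 1 or 3 or lesioned library 1 or 3 (adjusted p up to 0.132), with summed transcripts (0.0652) and with the cortical covariate (log2 fold change -0.28, adjusted p = 0.189).

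The 5 members that passed with the replicate number as a block but not without it were all lower on the lesioned side, and 4 of them (Gabra3, Gabra4, Gabrg3 and Gabbr1) also passed in a fit over all 12 libraries, which called 10 members. Gabra4 read 50.7, 43.7 and 46.6 CPM against 42.7, 31.2 and 39.2 CPM, with the lowest value of each group in library 2 (log2 fold change -0.32, edgeR adjusted p = 0.108, and 0.00459 with the block). The Gabra4 value was -0.18 both without lesioned library 2 (adjusted p = 0.26) and with the cortical covariate (0.441). Gabra3, an alpha subunit, read 8.3, 11.2 and 9.38 CPM against 6.55, 8.68 and 5.23 CPM (log2 fold change -0.49, adjusted p = 0.0908, and 0.00283 with the block). Without lesioned library 2 the Gabra3 value was -0.70 and was called (adjusted p = 0.0091), and without lesioned library 3 it was -0.33 and was not called. In both genes every lesioned library lay below the unlesioned library of the same number, and for Gabra3 the groups overlapped. Gabrg3 (adjusted p = 0.095, and 0.0265 with the block) and Gabbr1 (0.121, and 0.0247 with the block) were also lower in each lesioned library than in the unlesioned library of the same number. Gabrg3 was called without unlesioned library 2 (log2 fold change -0.41, adjusted p = 0.0383), against -0.32 with all libraries. Its value was -0.18 and not called without unlesioned library 3, and -0.19 with the block and the GC and length trend removed.

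The astroglial transporter Slc6a11 differed more between library numbers than between sides. It read 17.6, 33.3 and 22.3 CPM in the unlesioned and 14.4, 28 and 15 CPM in the lesioned libraries after chronic L-DOPA, so that library 2 was highest on both sides and the groups overlapped. The log2 fold change was -0.35 (SE 0.27, edgeR adjusted p = 0.468), and -0.37 with the block (adjusted p = 0.00399). It was -0.06 without unlesioned library 2 (adjusted p = 0.917) and -0.72 without lesioned library 2 (adjusted p = 0.0456). Thalamus markers and oligodendrocyte markers were also highest in library 2 of both chronic groups (oligodendrocyte sums of 1953 and 1852 CPM against 1002 to 1418 CPM in the other chronic libraries). The astrocyte marker sums were 147, 172 and 157 CPM in the unlesioned and 181, 241 and 195 CPM in the lesioned libraries, higher on the lesioned side without overlap, with 1 of 6 markers called higher. Among them only Gfap was separated between the sides (11.3, 19.6 and 11.3 CPM against 39, 68.5 and 56.8 CPM), and each other astrocyte marker overlapped. The part of these marker lists in the Slc6a11 levels and in the other chronic lesion effects was not tested.

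**Figure D3:**
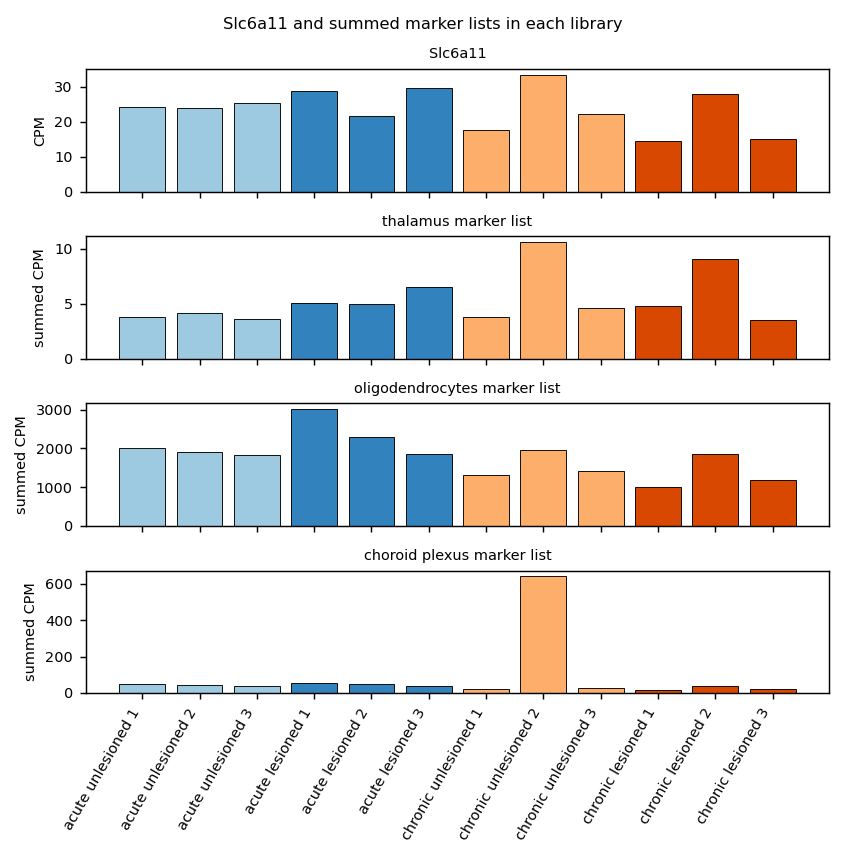
Slc6a11 (CPM) and the summed CPM of thalamus, oligodendrocyte and choroid plexus marker lists in each of the 12 libraries, as bars from 0. Within each chronic group library 2 is highest in Slc6a11 (33.3 and 28 CPM), while acute lesioned libraries 1 and 3 read 28.8 and 29.7 CPM. Library 2 of both chronic groups is high in thalamus markers (10.6 and 9.04 CPM), and only the chronic unlesioned library 2 is high in choroid plexus markers (640 CPM).

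The other members were not called with the lesion in the chronic groups by the main fit. Gphn, the scaffold that anchors GABA-A receptors, and Nlgn2, an adhesion protein of inhibitory synapses, gave log2 fold changes of -0.15 and -0.08 (edgeR adjusted p = 0.271 and 0.589). Gabra2 gave 0.18 (adjusted p = 0.172), Abat 0.17 (0.189), Gabra5 0.15 (0.624), Gabrb1 -0.26 (0.273) and Gabrg1 0.06 (0.808). The groups of Gphn, Gabra2 and Abat did not overlap. Each of these genes was called in 1 alternative, the block with the GC and length trend removed (edgeR adjusted p = 0.0436, 0.0295 and 0.0377). The top transcript of Gabrb1 is a single-exon clone of 3430 bases, of which 1124 bases lie in the annotated UTR and 2306 bases outside the exons of Gabrb1 in GENCODE M1, so its level need not be that of the coding transcript. For the weakly expressed Gabrq (8 to 38 counts per library), Gabre and Gabrr2 the standard errors were 0.39 to 0.54, and no change with the lesion was shown.

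**Figure D4:**
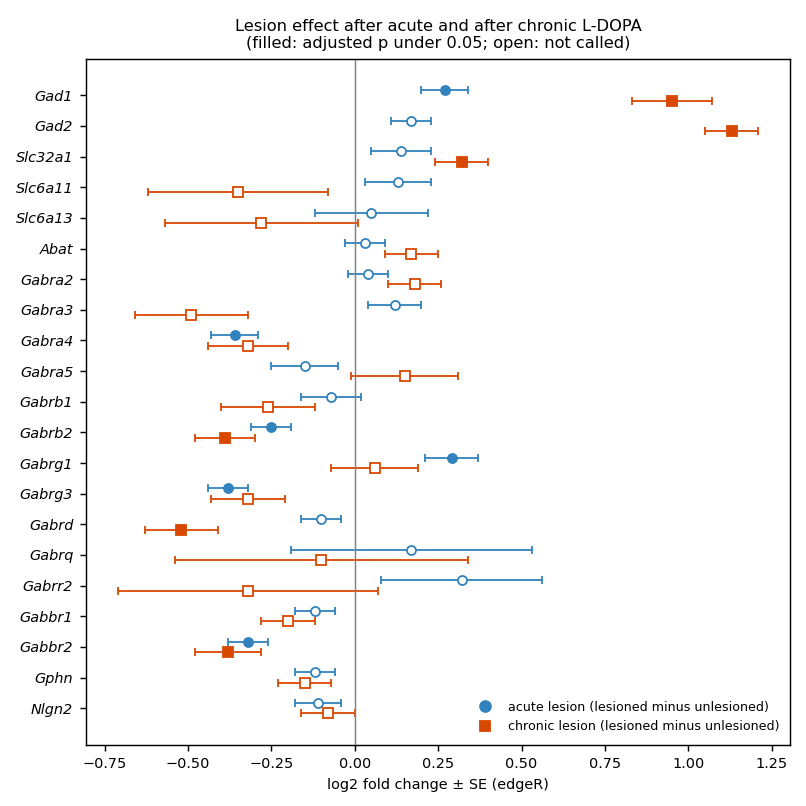
Log2 fold change of lesioned over unlesioned striatum with its SE, after acute (circles) and after chronic L-DOPA (squares), for the 21 members tested in both comparisons, with filled symbols for an adjusted p under 0.05. Gad1 and Gad2 lie at 0.27 and 0.17 after acute and at 0.95 and 1.13 after chronic L-DOPA, while Gabra4, Gabrb2 and Gabbr2 lie below 0 in both.

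Whether the lesion effect differed between the treatments was tested as an interaction over all 12 libraries. Of 22 members 2 were called (9.09%), Gad2 and Gad1, both with a larger lesion effect after chronic L-DOPA, against 4.52% of all transcripts and 5.1% of genes by their top transcript. With the sign of the difference, 3.22% of all transcripts were higher and 1.3% lower, and 3.53% and 1.56% of genes by their top transcript. The difference was 0.96 on the log2 scale for Gad2 (SE 0.10, edgeR adjusted p = 3.16e-05), with all 7 transcripts called, and it lay between 0.91 and 1.00 without each library in turn. For Gad1 it was 0.68 (SE 0.15, edgeR adjusted p = 0.0154), with 18 of 19 transcripts called, and the adjusted p was 0.0517 without acute lesioned library 1. Slc32a1 gave 0.18 (adjusted p = 0.482), so a difference between treatments was not shown for the vesicular transporter.

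With all 12 libraries and no block or correction, edgeR called 0 members with a lower lesion effect after chronic L-DOPA, although 2 had an unadjusted p under 0.05 and DESeq2 called 1, Gabrd. Gabrd gave a difference of -0.41 (SE 0.13, edgeR adjusted p = 0.0813) and an adjusted p of 0.0171 with the replicate block, where 5 members and, over all 20682 genes by their top transcript, 1509 higher and 1268 lower were called. Gabrd was also called with the trend on GC content and length removed (-0.45, adjusted p = 0.0301) and without chronic lesioned library 3 (-0.54, adjusted p = 0.00675). The other members added by the block were Gabra3 (-0.63, adjusted p = 0.00688) and Slc6a11 (-0.48, adjusted p = 0.0146). Without the block, Gabra3 was called when chronic lesioned library 2 was left out (-0.82, adjusted p = 0.01), and Slc6a11 ranged from -0.85 without that library to -0.18 without chronic unlesioned library 2, with neither called. For Gabra4, Gabrb2 and Gabbr2 the differences were 0.05, -0.13 and -0.05 with SEs of 0.14, 0.10 and 0.12, so a difference between their acute and chronic lesion effects was not shown.

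**Figure D5:**
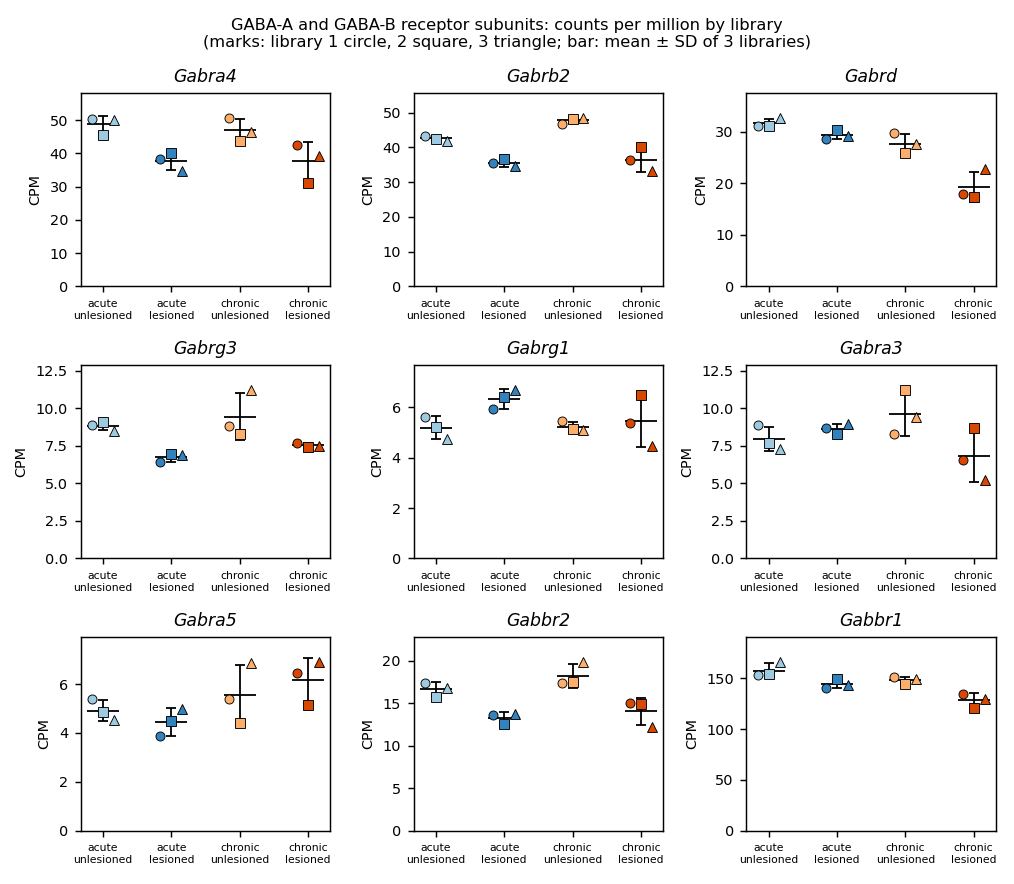
CPM of 9 GABA-A and GABA-B receptor subunits in each of the 12 libraries, by group, with the mean and SD of 3 libraries as bars. Under both treatments the lesioned libraries of Gabrb2 and Gabbr2 lie below the unlesioned ones without overlap, and the chronic lesioned libraries of Gabrd (17.4 to 22.7 CPM) lie below all other libraries.

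The lesioned striatum after chronic and after acute L-DOPA was compared directly. Of 22 members 7 were called (31.8%), against 23.3% of all transcripts and 25.6% of genes by their top transcript, so the share lay not far above the background. By direction, 12.1% of all transcripts were higher and 11.2% lower, and 12.5% and 13.1% of genes by their top transcript. Gad2 rose from 85, 94.4 and 96.3 CPM to the chronic values of 219 to 245 CPM (2.49-fold, log2 fold change 1.32, SE 0.08, edgeR adjusted p = 2.85e-06). Gad1 rose 1.74-fold (log2 fold change 0.80, SE 0.10, edgeR adjusted p = 0.000269). Gabrd fell from 28.7, 30.4 and 29.2 CPM to 18, 17.4 and 22.7 CPM without overlap (log2 fold change -0.60, SE 0.10, edgeR adjusted p = 0.0021). These 3 calls held without each library in turn. Without chronic lesioned library 2, which carries the thalamus markers, 11 members were called, and those added were all lower: Gabra3 (log2 fold change -0.55, adjusted p = 0.00235), Gabrg1 (-0.36, 0.0255), Slc6a11 (-0.86, 0.000264) and the transporter Slc6a13 (-1.03, 0.00866). With all libraries their values were -0.34, -0.22, -0.48 and -0.72, and none was called. Without chronic lesioned library 3 Gabra3 gave -0.18 and Gabrg1 -0.09. Without chronic lesioned library 1 Slc6a11 gave -0.31 and Slc6a13 -0.56.

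Slc32a1, Abat, Gabra5 and Gabrr2 were also called higher in the chronic lesioned striatum, by edgeR and with less margin. Slc32a1 went from 72, 80.8 and 86.1 CPM to 92.2, 93.1 and 104 CPM (log2 fold change 0.28, adjusted p = 0.0416). Abat, the transaminase, went from 115, 116 and 111 CPM to 146, 129 and 135 CPM (log2 fold change 0.26, adjusted p = 0.0294). In both genes the groups did not overlap. Gabra5, an alpha subunit, went from 3.87, 4.51 and 4.98 CPM to 6.44, 5.14 and 6.9 CPM, again without overlap (log2 fold change 0.47, SE 0.13, adjusted p = 0.0221).

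Slc32a1 and Gabra5 lost the call without acute lesioned library 1 or 2 or chronic lesioned library 1 or 3 (adjusted p up to 0.152 and 0.0857). Abat lost it without each of the libraries except chronic lesioned library 2 (adjusted p up to 0.122). With summed transcripts Slc32a1 had an adjusted p of 0.0501. In the same comparison all 6 oligodendrocyte markers were lower after chronic L-DOPA (sums of 1002 to 1852 CPM against 1860 to 3012 CPM), as were 4 of 6 astrocyte markers and 4 of 6 microglia markers. Their part in the member results was not tested.

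The rho subunit Gabrr2 was scarce but rose on both sides. It had 21 to 28 counts in the acute lesioned and 30 to 62 counts in the chronic lesioned libraries, and 23 to 32 against 55 to 102 counts in the unlesioned libraries. In CPM the unlesioned libraries went from 0.182, 0.173 and 0.172 to 0.939, 0.476 and 0.37, and the lesioned ones from 0.212, 0.254 and 0.196 to 0.706, 0.453 and 0.273. No acute library overlapped the chronic ones of its side, and library 1 was the highest chronic library on both sides. The log2 fold change was 1.73 in the unlesioned (SE 0.33, edgeR adjusted p = 0.0272) and 1.10 in the lesioned striatum (SE 0.33, edgeR adjusted p = 0.034). The calls were lost without each acute library and without chronic library 1 of the side (adjusted p up to 0.132 unlesioned and 0.147 lesioned), and with summed transcripts (0.0598 and 0.0584).

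In the unlesioned striatum 2 of 21 members were called between chronic and acute L-DOPA (9.52%), against 2.61% of all transcripts and 3.07% of genes by their top transcript. In this comparison 0.969% of all transcripts were higher and 1.64% lower, and 1.07% and 2% of genes by their top transcript. Besides Gabrr2 this was Gad2, which went from 80.3, 82.1 and 83.2 CPM to 106, 98.8 and 109 CPM without overlap (1.28-fold, log2 fold change 0.35, SE 0.06, edgeR adjusted p = 0.0238). Without chronic unlesioned library 2, with its choroid plexus markers, the log2 fold change was 0.39 (adjusted p = 0.00275), and the call was lost without each of the other libraries (adjusted p up to 0.123) and with summed transcripts (0.0515). Gad1 gave a log2 fold change of 0.12 (SE 0.10, adjusted p = 0.538). Beside these, 2 of 6 astrocyte markers (sums of 147 to 172 CPM chronic against 178 to 201 CPM acute) and 2 of 6 microglia markers (40.5 to 51.7 CPM against 57 to 59.6 CPM) were lower, without overlap of the sums, and their part in the Gad2 result was not tested. No member was called lower by edgeR or DESeq2, and 1 was lower at an unadjusted p under 0.05 with each tool. Without chronic unlesioned library 2, however, edgeR called Slc6a13 lower (log2 fold change -0.63, adjusted p = 0.0465, against -0.39 and 0.289 with all 6 libraries).

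Several members are neighbours in the genome. On chromosome 5 of mm9, Gabrg1 (chr5:71142286-71233856), Gabra2 (chr5:71350722-71487048) and Gabra4 (chr5:71960973-72049547) follow each other on the minus strand. After acute L-DOPA their log2 fold changes with the lesion were 0.29, 0.04 and -0.36, of which the outer ones were called in opposite directions. On chromosome 4, Gabrr2 and Gabrr1 lie 36406 bases apart on the plus strand. Gabrr1, which entered no main test, had 0, 5 and 3 counts in the acute lesioned and 15, 8 and 8 counts in the chronic lesioned libraries, without overlap. Of all genes tested, 20.4% were higher without overlap in that comparison. On the unlesioned side Gabrr1 had 0, 3 and 4 counts after acute and 5, 2 and 6 counts after chronic L-DOPA, with overlap. On chromosome X, Gabre, Gabra3 and Gabrq form a further group, of which only Gabra3 was above 1 CPM. Exons of Gabra5, Slc32a1 and Abat overlap exons of genes on the opposite strand in GENCODE M1 (Gm9962, Gm14205 and Gm9851). Whether the counting used the strand is not given in the sources used here, so reads of these overlaps cannot be assigned to a gene.

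A cDNA clone on chromosome 10, AK137640 (chr10:98906339-98909157, mm9), followed Gad1 most closely over the 12 libraries (Pearson r = 0.997 of log2 CPM among 12794 genes). The mm9 sequence at that position aligned with the Gad1 cDNA of 3355 bases in a single stretch of 2720 columns at 91.1% identity, with 183 mismatches. The clone carried 11% to 11.9% of the Gad1 count in every library. How reads with several matches were treated is not given in the sources used here, so the Gad1 level is uncertain by an amount of that order, while the share did not differ visibly between the groups. The overlapping clone AK137453 had the same r. All these correlations are descriptions over libraries that fall into 4 groups.

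For Gad2 the most similar genes were Ccdc6 (r = 0.990), Cacna2d2, an auxiliary subunit of calcium channels (r = 0.990), and Gm14703 (r = 0.989). Cacna2d2 averaged 20.5, 22.7, 23.8 and 43 CPM in the acute unlesioned, acute lesioned, chronic unlesioned and chronic lesioned groups. For Gabrd, the potassium channel Kcnh4 was among the most similar genes (r = 0.973). It averaged 10.6, 9.04, 8.27 and 5.02 CPM in the same order of groups.

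Other genes of the pathway were counted from lists in the same edgeR fits. Of 10 genes for partners and effectors of the GABA-B receptor, 1 was higher and 4 were lower with the lesion after acute L-DOPA, and 1 was higher and 4 were lower after chronic L-DOPA. DESeq2 called 1 higher and 2 lower after acute, and 1 higher and 3 lower after chronic L-DOPA. Over all genes by their top transcript edgeR called 7.16% lower after acute and 5.2% after chronic L-DOPA. Kctd12, an auxiliary subunit that speeds desensitization of the receptor, rose in both (log2 fold change 0.50, adjusted p = 0.00198, and 0.90, adjusted p = 0.000354), with means of 27.9, 39.3, 28.4 and 53 CPM in the order of groups above. Kctd8 and Kctd16, auxiliary subunits of the same family, fell in both (-0.27 and -0.50 acute, -0.36 and -0.60 chronic). Kcnj9, a potassium channel opened by the receptor, fell by 0.23 and 0.29 on the log2 scale, and Kcnj3 of the same channel family fell by 0.79 after chronic L-DOPA (adjusted p = 0.00912), while its difference between treatments was not called by edgeR (-0.71, adjusted p = 0.0531). DESeq2 called 1 gene of this list with a lower lesion effect after chronic L-DOPA, and edgeR called 0.

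Of 10 organisers of inhibitory and other synapses, 5 were lower with the lesion after acute and 5 after chronic L-DOPA, beside 7.16% and 5.2% of all genes. The list medians were -0.18 and -0.42, against 0.02 and -0.01 over all genes by their top transcript. Lrrtm1, an adhesion protein, fell by 0.86 and 0.63 (adjusted p = 1.65e-06 and 0.00428), and Nrxn3, a presynaptic neurexin, by 0.24 and 0.43 (adjusted p = 0.0156 and 0.0155). Of 17 partners of the GABA-A receptor 2 were higher and 2 lower in either comparison, beside 8.16% and 7.16% of all genes after acute and 8.46% and 5.2% after chronic L-DOPA, and nothing is read from these counts about the list. Among them, Mdga1, which binds neuroligins, rose (0.46 and 0.62) and Slitrk3, an adhesion protein of inhibitory synapses, fell (-0.53 and -0.70).

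Of 8 chloride transport genes 2 were higher with the lesion after acute L-DOPA, beside 8.16% of all genes, among them the chloride importer Slc12a2 (0.38, adjusted p = 0.021), and none was called after chronic L-DOPA, where 4 had an unadjusted p under 0.05 in edgeR and 3 in DESeq2. Of 12 genes of GABA and glutamine metabolism, Glud1 and Slc38a2 were higher after acute L-DOPA, beside the same share of all genes. Glul, the glutamine synthetase of astrocytes, was the only such gene called in the interaction (-0.38, adjusted p = 0.0476, beside 1.56% of all genes lower), with means of 211, 233, 207 and 176 CPM in the order of groups above. Of 12 transcription factors of GABAergic neurons tested, 4 were higher and 3 lower with the lesion after acute L-DOPA, and 2 were higher and 1 lower after chronic L-DOPA, beside 8.16% and 7.16%, and 8.46% and 5.2%, of all genes. Sp9 rose in both (0.86, adjusted p = 9.81e-06, and 0.95, adjusted p = 0.000108) and Ebf1 fell in both (-0.69, adjusted p = 0.000527, and -0.94, adjusted p = 0.00049). Of 13 tested in the interaction, Isl1 (0.92, adjusted p = 0.00637) and Six3 (0.48, adjusted p = 0.0462) were called, beside 3.53% of all genes higher. Isl1 averaged 3.33 and 1.93 CPM in the acute unlesioned and lesioned striatum and 3.86 and 4.22 CPM after chronic L-DOPA.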

How the data were processed

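RNA from striatal punches was made into TruSeq libraries and sequenced on a Genome Analyzer. The authors mapped the reads to mm9 and deposited raw read counts per transcript of the Genomatix list (189660 transcripts), without normalization. Settings for strand and for reads with several matches are not given in the sources used here. The authors' 3 comparison tables hold their DESeq fold changes and p-values and were not used, nor were 48 further columns of per-sample values. Transcripts without a symbol (296, with 0.0485% of counts) were dropped, which left 189364.

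Counts were tested in edgeR 4.0.16 (R 4.3.3) with filterByExpr by group, TMM, glmQLFit and glmQLFTest, on the 6 libraries of each comparison or, for the interaction, on all 12, with Benjamini-Hochberg adjustment over all transcripts tested. Each SE is the absolute log2 fold change divided by the square root of F. The fits were tested on simulated data: fold changes were recovered without visible bias, but the share of false calls lay above the nominal level in all 3 comparisons simulated, and fewer of the changed transcripts were recovered for the interaction, so calls near the threshold are less certain than their adjusted p. Groups and replicate numbers came from the sample labels. The members and the gene lists were chosen with earlier results of these data known. Members called in at least 1 comparison are given by library, and the others by level and fold change. Genes most like a member are the top 3 by Pearson r, for the 3 members with the smallest interaction p, among genes of at least 1 CPM, and some of these genes are not reported here.

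Exact permutation tests were not run, since groups of 3 and 3 allow no p under 0.10. No source states that the libraries of a group are separate animals beyond the count of mice, and p-values measure the spread between these libraries. No replicate was a copy of another (chi-square per degree of freedom 5.41 to 19.7 between replicates). Same-numbered lesioned and unlesioned libraries correlated in their deviations from the group means (acute 0.478, 0.444 and 0.39, chronic 0.519, 0.566 and 0.153, over 12794 genes). The chronic value for number 3 was no higher than that of unlesioned library 3 with lesioned library 1 (0.155). The main fits carried no block. The number was taken as a block in an alternative fit, and blocked values are given where they change a call. The alternatives were DESeq2 1.42.0 and its size factors, a threshold of 0.01 on the adjusted p, unfiltered low counts, summed transcripts, only the top transcript of each gene, a fit over 12 libraries, the replicate block, removal of the trend on GC content and length (with and without the block), a cortical marker score as covariate, and each library left out in turn. A fit of single transcripts with known GC was chosen after seeing the data. Promoter sequences came from RefSeq (GRCm38.p6) and annotations from GENCODE M1.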

Additional observations from a re-analysis of the deposited data

Results flagged for a closer look

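Gad1 and Gad2 stand out because their lesion effects differed between the treatments by a test of the difference itself. The lesion effect after chronic minus that after acute L-DOPA was 0.68 on the log2 scale for Gad1 and 0.96 for Gad2. For Gad2 the chronic lesioned libraries (219 to 245 CPM) lay above all other 9 libraries (80.3 to 109 CPM), and for Gad1 they did so as well (210 to 259 CPM against 104 to 140 CPM). Groups of 3 libraries were too small for a search for single outlying samples.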

How the results depend on the processing

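No called fold change of a member turned its sign under the alternatives run, but the median log2 fold change of the members tested after acute L-DOPA went from 0.03 to -0.14 with the cortical marker covariate, where 0 members were called higher and 2 lower in edgeR. The number of members called with the lesion after acute L-DOPA (6) ranged from 3 (without unlesioned library 2) to 7 with a library left out, and was 2 with the cortical marker covariate, 3 at an adjusted p under 0.01, 4 in the fit over 12 libraries (0 higher and 4 lower in edgeR, against 2 and 4 in DESeq2 on 6 libraries) and 9 with the block and the GC and length trend removed, which added Gad2, Gabrd and Nlgn2. After chronic L-DOPA (6) it ranged from 2 (without lesioned library 1) to 8 (without lesioned library 2), with 3 without unlesioned library 1 or 3 or lesioned library 3, and was 10 in the fit over 12 libraries, 11 with the replicate block, 14 with the block and the GC and length trend removed, 3 with the cortical covariate and 2 at an adjusted p under 0.01. For chronic against acute L-DOPA the count in the lesioned striatum (7) ranged from 3 (without acute library 1 or 2 or chronic library 1) to 11 (without chronic library 2), with 4 without chronic library 3, and was 3 at an adjusted p under 0.01. In the unlesioned striatum (2) it ranged from 0 (without each acute library or chronic library 1, where 3 to 6 members had an unadjusted p under 0.05 in edgeR) to 3, with 1 without chronic library 3, and was 0 with summed transcripts in edgeR (4 at an unadjusted p under 0.05), 1 with the block and the GC and length trend removed, and 0 at an adjusted p under 0.01; DESeq2 called 2. For the interaction (2) it ranged from 1 (without acute lesioned library 1) to 3, and was 3 with the GC and length trend removed, 5 with the block, 5 with the block and the GC and length trend removed, and 1 at an adjusted p under 0.01. Calls over all genes with known GC shifted as well. With the block and the GC and length trend removed, 2051 were higher and 2310 lower of 14460 after acute L-DOPA, against 1254 and 1318 with neither. After chronic L-DOPA these counts were 2046 and 2669 of 14237, against 1299 and 854. In the interaction they were 1504 and 1496 of 14596, against 671 and 284. The cause of these shifts was not tested. In the lesioned striatum, where chronic and acute libraries share only a number, the block lost Abat (adjusted p = 0.054) and added Slc6a13 (-0.78, adjusted p = 0.0307), and this pairing is not read further. In the lesion comparisons the block added Gad2 after acute and 5 members after chronic L-DOPA, and it added 3 in the interaction. Low counts limit Gabrq (8 to 38 per library), Gabre (at most 20) and Gabrr1 (at most 15, in no main test).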
